A study of Mus musculus with 16 samples.

Results

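Interferon-stimulated genes were described here through 9 genes, chosen by name: Isg15, Ifit1, Ifit2, Ifit3, Irf7, Irf9, Bst2, Ifi35 and Oasl2. All 9 symbols matched 1 identifier each among the 32989 of the count table, and the rule that names them uses no measured value, although the set was drawn up with earlier results of these data known. They were measured in hair follicle stem cell (HFSC) organoids, which were started from epidermal cells of 4 C57BL/6J mice, kept for 2 weeks in a 3-dimensional matrix (3D–3C culture) and sorted on integrin α6 and CD34. The labels call the untreated samples WT. The 4 groups were untreated α6+/CD34- progenitors, untreated α6+/CD34+ HFSCs, and the same 2 sorted fractions after 72 h with N1-acetylspermidine (N1-AcSpd), an acetylated polyamine added to the medium. Each group held 4 libraries, 1 from each mouse, so that a mouse number stands for the same animal in every group. The methods describe mice of both sexes in telogen, the resting stage of the hair cycle, at either of the postnatal age windows of that stage, and do not tie a sex or a window to the single animals used here. RNA was read from transcript 3′ ends and counted by unique molecular identifiers (UMIs), tags that mark single molecules.

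Interferons are secreted antiviral cytokines. Type I interferons bind a receptor made of IFNAR1 and IFNAR2, whose kinases JAK1 and TYK2 phosphorylate STAT proteins. These join IRF9 in the complex ISGF3, which binds the interferon-stimulated response element (ISRE) in promoters of antiviral genes, while interferon γ uses a receptor of its own. Epithelial stem cells are known to keep part of this gene programme active without infection.

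The 9 genes fall into 3 roles. Irf9 (chr14:55603571-55610030, plus strand) encodes the DNA-binding subunit of ISGF3, and Irf7 (chr7:141262706-141266481, minus strand) a transcription factor that amplifies interferon production. Isg15 (chr4:156199424-156200818, minus strand) encodes a ubiquitin-like protein that is conjugated to other proteins. The rest are effectors or partners of effectors. Ifit1 (chr19:34640871-34650009), Ifit2 (chr19:34550694-34576419) and Ifit3 (chr19:34583531-34588731) lie on the plus strand of 1 chromosome and encode proteins with tetratricopeptide repeats that act on viral RNA. Bst2 (chr8:71534255-71537456, minus strand) encodes tetherin, which holds budding virus particles at the cell surface. Oasl2 (chr5:114896936-114912234, plus strand) encodes a protein of the oligoadenylate synthetase family, and Ifi35 (chr11:101448407-101458698, plus strand) an interferon-induced leucine zipper protein. Positions are on GRCm38 (mm10) from GENCODE, which annotates all 9 as protein coding.

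RefSeq promoter windows (GRCm38.p6, from 250 bases before to 50 after each start site) were searched on both strands for the ISRE core GAAANNGAAA, whose reverse complement is TTTCNNTTTC, and overlapping matches were all counted. The core was found in 4 of the 9 genes, Isg15, Ifit1, Ifit3 and Bst2, against 3.99% of the 27025 genes with a window and 3.44% of the 32851 windows. The 4 sequences below run 5′ to 3′ on the gene's strand up to the first annotated base of the gene, with core matches in capitals. Isg15, Ifit3 and Bst2 show the core, and Ifi35, the member with the most UMIs, shows a promoter without it.
Isg15 (chr4:156200819-156200978, minus strand): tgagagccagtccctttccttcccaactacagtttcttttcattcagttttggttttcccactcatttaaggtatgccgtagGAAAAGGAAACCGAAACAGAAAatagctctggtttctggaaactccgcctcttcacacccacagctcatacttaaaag
Ifit3 (chr19:34583369-34583528, plus strand): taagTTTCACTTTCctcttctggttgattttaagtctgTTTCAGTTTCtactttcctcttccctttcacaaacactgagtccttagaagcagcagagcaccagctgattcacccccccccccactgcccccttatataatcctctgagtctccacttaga
Bst2 (chr8:71537473-71537632, minus strand): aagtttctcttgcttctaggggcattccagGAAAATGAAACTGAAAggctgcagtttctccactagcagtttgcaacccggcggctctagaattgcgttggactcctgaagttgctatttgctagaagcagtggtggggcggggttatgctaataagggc
Ifi35 (chr11:101448252-101448406, plus strand): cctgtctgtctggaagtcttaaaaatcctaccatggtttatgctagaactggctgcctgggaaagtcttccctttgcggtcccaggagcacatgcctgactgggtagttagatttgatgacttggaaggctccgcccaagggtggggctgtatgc
Counted from the start site, 3 overlapping matches in Isg15 began at positions -78, -72 and -66, and a pair of overlapping matches in Bst2 at -130 and -124. The matches of Ifit3 began at -156 and -122, and those of Ifit1 at -104 and -85. No window of Irf7, Irf9, Ifit2, Oasl2 or Ifi35 held these letters, which says nothing of sites elsewhere.

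All libraries held between 15480075 and 29074855 UMIs. Values per library are given as CPM, the UMI count scaled by the library's total after TMM adjustment. The sort marker Cd34 lay between 2.87 and 3.65 CPM wherever CD34- cells had been sorted and between 43.4 and 64.0 CPM wherever CD34+ cells had, whereas Itga6, which encodes integrin α6, ran from 45.7 to 68.8 CPM in all 16. The 9 epithelial markers examined summed to between 6168 and 7114 CPM. Of 16 immune cell markers, 11 had counts, and their sum ran from 9.22 to 12.6 CPM in untreated CD34-, from 8.99 to 10.6 in untreated CD34+, from 10.4 to 11.96 in N1-AcSpd CD34- and from 8.06 to 9.32 in N1-AcSpd CD34+ libraries. Csf1r, whose counts nearly equal those of the overlapping Hmgxb3, and Itgam, which overlaps another gene model, gave most of this sum. Over all 16 libraries Cd68 had 398 UMIs and Ptprc, also overlapped by another gene model, 172. The T cell and antigen-presenting cell markers Cd3e and Cd74 had at most 4 UMIs in any group. Of 5 immune markers tested, 1 was lower in untreated CD34+ than CD34- cells and 2 after N1-AcSpd. The shares of all tested genes lower in CD34+ cells were 16.1% and 16.8%, and no immune marker was higher. Fibroblast markers summed to at most 1.52 CPM. Of the endothelial markers Pecam1 was listed at group means from 1755 to 1985 CPM while the group means of Kdr and Tie1 were at most 0.367 CPM, and of the melanocyte markers only Pmel, which overlaps Cdk2 and Dgka, passed 1 CPM. The part of other cell types in the results was not tested, and in sorted bulk samples fewer cells that use a gene and less RNA per cell cannot be told apart.

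The 9 genes differed widely in UMIs. Over all 16 libraries Ifi35 had 6375 UMIs, Irf9 2055, Irf7 424 and Bst2 262, whereas Oasl2 had 93, Isg15 87, Ifit1 72, Ifit3 10 and Ifit2 8. The test was run on the 19049 genes whose mean count reached 5, among them 6 of the 9. Ifit1 with a mean of 4.5 UMIs per library, Ifit3 with 0.625 and Ifit2 with 0.5 were not tested. Ifit2 had no UMI in 9 libraries and Ifit3 none in 10. In the N1-AcSpd CD34+ group Ifit3 had no UMI in any library, which allows a level of up to 0.0385 CPM (3 counts over the group, counting error only).

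**Figure D1:**
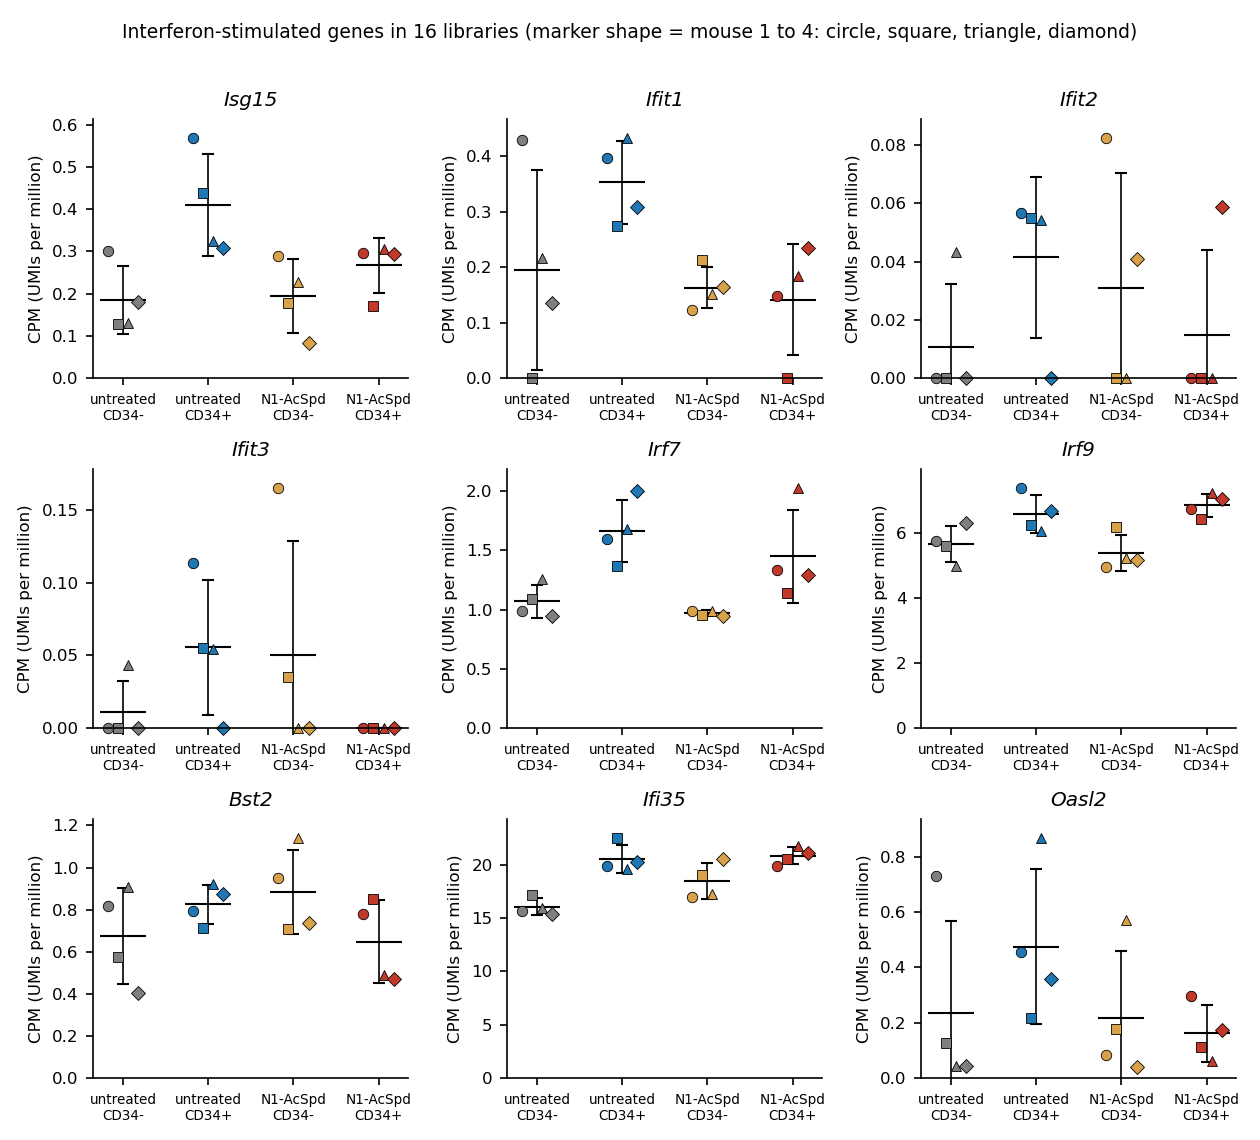
CPM of each of the 9 genes (y axes, linear from 0) in the 4 groups (x axes). Points are libraries, the marker shape gives the mouse, and black lines give the mean with SD over 4 libraries, the lower end hidden where it passes below 0. Ifi35 and Irf7 sit higher in untreated CD34+ than in untreated CD34- libraries without overlap, and Ifit2 and Ifit3 are at 0 in most libraries.

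The first comparison asked whether CD34+ HFSCs differed from CD34- progenitors without treatment. Ifi35, Irf7 and Isg15 were higher in CD34+ cells, 3 of the 6 tested members, and none was lower. Over all tested genes 32.1% were called in this comparison, 16.1% higher and 16.1% lower in CD34+ cells. The median log2 fold change of the 6 members was 0.49, against 0.02 for all tested genes. The groups did not overlap for the same 3 of the 9 members, against 32.2% of all tested genes.

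Ifi35 gave 15.6, 17.2, 16.0 and 15.4 CPM in untreated CD34- libraries of mice 1 to 4 and 19.8, 22.5, 19.6 and 20.2 CPM in untreated CD34+ libraries. Every CD34+ library lay above every CD34- library. The means were 16.1 ± 0.78 and 20.5 ± 1.31 CPM (SD, n = 4 each), 0.36 higher on the log2 scale (SE 0.064, edgeR adjusted p = 0.000795). It was the member with the smallest adjusted p and was called in every alternative tried. An antisense gene model over Ifi35, Gm11626, had 123 UMIs against its 6375. Rpl27, a neighbour on the same strand that does not overlap Ifi35, had 318888 UMIs. Its r with Ifi35 over the 16 libraries was 0.65, and a part of Rpl27 in the Ifi35 counts was not tested.

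Irf7 gave 0.989, 1.09, 1.26 and 0.947 CPM in untreated CD34- libraries and 1.59, 1.37, 1.68 and 2.00 CPM in untreated CD34+ libraries. These groups did not overlap either, with means of 1.07 ± 0.137 and 1.66 ± 0.262 CPM (SD, n = 4 each) which lay 0.63 apart on the log2 scale (SE 0.18, edgeR adjusted p = 0.0149), in the same direction in each of the 4 mice. The call was lost without untreated CD34+ library 4 (log2 fold change 0.52, adjusted p = 0.0592), without mouse 1 (0.62, adjusted p = 0.0950) and without mouse 4 (0.48, adjusted p = 0.151). Irf7 overlaps Phrf1 on the opposite strand, which had 2827 UMIs and an r of 0.28 with Irf7 over the 16 libraries.

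Isg15 counts were 7, 2, 3 and 4 UMIs in untreated CD34- libraries and 10, 8, 6 and 6 UMIs in untreated CD34+ libraries. On the CPM scale these were 0.301, 0.128, 0.130 and 0.180 against 0.569, 0.439, 0.325 and 0.308, and the lowest CD34+ library lay just above the highest CD34- library. The log2 fold change was 1.11 (SE 0.39, edgeR adjusted p = 0.0447), close to the threshold. The call did not hold with no low-count filter, in a fit of the compared groups only, in DESeq2 (adjusted p = 0.129) or in 16 of the 20 fits that left out a library or a mouse, with adjusted p from 0.0193 to 0.195 over these 20. Summed over the group, 16 UMIs in CD34- cells gave 0.190 CPM (95% exact Poisson interval 0.109 to 0.309) and 30 UMIs in CD34+ cells 0.407 CPM (0.274 to 0.581).

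The other 3 tested members did not pass. Irf9 gave 5.76, 5.62, 4.98 and 6.31 CPM in untreated CD34- libraries and 7.39, 6.25, 6.07 and 6.68 CPM in untreated CD34+ libraries. It was higher in CD34+ cells in each of the 4 mice, the groups overlapped, and the log2 fold change was 0.22 (SE 0.089, edgeR adjusted p = 0.0770). It was called with library totals for scaling (0.33, adjusted p = 0.0137) and without untreated CD34- library 4 (0.28, adjusted p = 0.0391). Bst2 lay between 0.406 and 0.909 CPM in CD34- cells, and in CD34+ cells between 0.713 and 0.921 CPM (edgeR log2 fold change 0.28, SE 0.28, adjusted p = 0.516). Oasl2 counts were 17, 2, 1 and 1 UMIs in CD34- and 8, 4, 16 and 7 UMIs in CD34+ libraries. On the CPM scale CD34- library 1, at 0.731 CPM, stood above 3 of the 4 CD34+ libraries and below the highest at 0.867 CPM. The log2 fold change of Oasl2 was 0.97 (SE 0.89, edgeR adjusted p = 0.476), and without untreated CD34- library 1 it was 2.70 (adjusted p = 0.0385). Among the untested members Ifit1 gave 10, 0, 5 and 3 UMIs in CD34- and 7, 5, 8 and 6 UMIs in CD34+ libraries, and the groups overlapped.

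The same fractions were compared after N1-AcSpd. Irf7 and Irf9 were higher in CD34+ cells, 2 of the 6 tested members, and none was lower. The share over all tested genes was 33.3%, 16.5% higher and 16.8% lower. Median log2 fold changes were 0.26 for the 6 members and -0.01 for all tested genes. Irf7 and Irf9 were also the 2 of 9 members whose groups did not overlap, against 34.4% of all tested genes.

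Irf7 gave 0.9899, 0.958, 0.988 and 0.943 CPM in N1-AcSpd CD34- libraries and 1.34, 1.14, 2.02 and 1.29 CPM in N1-AcSpd CD34+ libraries. The CD34- libraries lay close together and the CD34+ libraries spread, mouse 3 standing highest. The log2 fold change was 0.57 (SE 0.18, edgeR adjusted p = 0.0239) and fell to 0.37 without N1-AcSpd CD34+ library 3 (adjusted p = 0.176). The call was also lost without N1-AcSpd CD34- library 2 (0.57, adjusted p = 0.0511) or library 4 (0.56, adjusted p = 0.0531), and without mouse 1 (0.62, adjusted p = 0.0908), mouse 3 (0.38, adjusted p = 0.216) or mouse 4 (0.61, adjusted p = 0.0675). It did not hold with no low-count filter (adjusted p = 0.0539), with only the compared groups (adjusted p = 0.0648) or in DESeq2 (adjusted p = 0.0755).

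Irf9 gave 4.95, 6.21, 5.24 and 5.17 CPM in N1-AcSpd CD34- libraries and 6.76, 6.43, 7.24 and 7.04 CPM in N1-AcSpd CD34+ libraries. No library of one group reached the other, and the means were 5.39 ± 0.558 and 6.87 ± 0.352 CPM (SD, n = 4 each). The log2 fold change was 0.35 (SE 0.088, edgeR adjusted p = 0.00744), and without mouse 4 it was 0.32 (adjusted p = 0.0587). Irf9 overlaps Rnf31 on the same strand, which had 1125 UMIs and an r of 0.80 with Irf9 over the 16 libraries, so the split of tags between the pair is uncertain.

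Ifi35 gave 17.0, 19.1, 17.3 and 20.5 CPM in N1-AcSpd CD34- libraries and 19.9, 20.5, 21.8 and 21.1 CPM in N1-AcSpd CD34+ libraries. The groups overlapped through CD34- library 4, and the log2 fold change of 0.17 (SE 0.064) had an edgeR adjusted p of 0.0502. With mouse as a replicate block the adjusted p was 0.0316, which made 3 members called. Ifi35 was also called with library totals for scaling (edgeR adjusted p = 0.00319) and with the filterByExpr low-count filter (edgeR adjusted p = 0.0453). In all these were 3 of 8 alternatives, and 8 of the 20 fits that left out a library or a mouse called it too. Isg15 lay between 0.0820 and 0.289 CPM in CD34- cells, and in CD34+ cells between 0.171 and 0.307 CPM (edgeR log2 fold change 0.45, SE 0.39, adjusted p = 0.464). Bst2 and Oasl2 had negative estimates, -0.44 (SE 0.28, edgeR adjusted p = 0.266) and -0.37 (SE 0.93, edgeR adjusted p = 0.8294).

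N1-AcSpd was then compared with no treatment. In neither sorted fraction did any of the 6 tested members pass in edgeR, and DESeq2 also called 0. At an unadjusted p under 0.05 there was 1 member in CD34- cells and 0 in CD34+ cells. The share of all tested genes under that unadjusted threshold is not given here, so counts at it cannot be called high or low. The share of all tested genes called was 0.614% in CD34- cells and 0.325% in CD34+ cells. Averaged over both fractions 4.86% of tested genes were called and again 0 members, with 1 at an unadjusted p under 0.05. The interaction, the difference between the treatment effects of the fractions, called 0% of all genes in edgeR, with 0 members at an unadjusted p under 0.05 and 0 called by DESeq2. With the groups set side by side, 9.05% of all tested genes did not overlap in CD34- cells and 6.81% in CD34+ cells.

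In CD34- cells the smallest unadjusted p was that of Ifi35 (0.00737, edgeR adjusted p = 0.173), the only member under an unadjusted 0.05. Its mean went from 16.1 ± 0.78 CPM untreated to 18.5 ± 1.66 CPM with N1-AcSpd (SD, n = 4 each), higher in each of the 4 mice, with a log2 fold change of 0.20 (SE 0.064). The groups overlapped, since the lowest treated library at 17.0 CPM lay under the highest untreated one at 17.2 CPM. The log2 fold change of Irf9 was -0.07 (SE 0.089), of Irf7 -0.14 (SE 0.18) and of Bst2 0.38 (SE 0.28), with edgeR adjusted p from 0.623 to 0.873 for these 3. Isg15 at 0.05 (SE 0.40) and Oasl2 at -0.13 (SE 0.90) had the largest SE.

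In CD34+ cells Irf9 and Ifi35 had log2 fold changes of 0.06 (SE 0.089) and 0.02 (SE 0.064). Irf7 had -0.20 (SE 0.18), Bst2 -0.34 (SE 0.28), Isg15 -0.60 (SE 0.39) and Oasl2 -1.47 (SE 0.92), with edgeR adjusted p of at least 0.544. The 2 of 9 members whose groups did not overlap, Isg15 and Ifit1, rest on few molecules. Isg15 had 8, 3, 5 and 5 UMIs in N1-AcSpd CD34+ libraries and 0.297, 0.171, 0.307 and 0.293 CPM, just under the lowest untreated CD34+ library at 0.308 CPM. Ifit1 had 4, 0, 3 and 4 UMIs there against 7, 5, 8 and 6 UMIs untreated, and summed over each group 0.141 CPM (95% exact Poisson interval 0.0705 to 0.253) against 0.353 CPM (0.230 to 0.517), intervals that overlap. Entered without the low-count filter, Ifit1 had an edgeR adjusted p of 0.663 in this comparison.

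**Figure D2:**
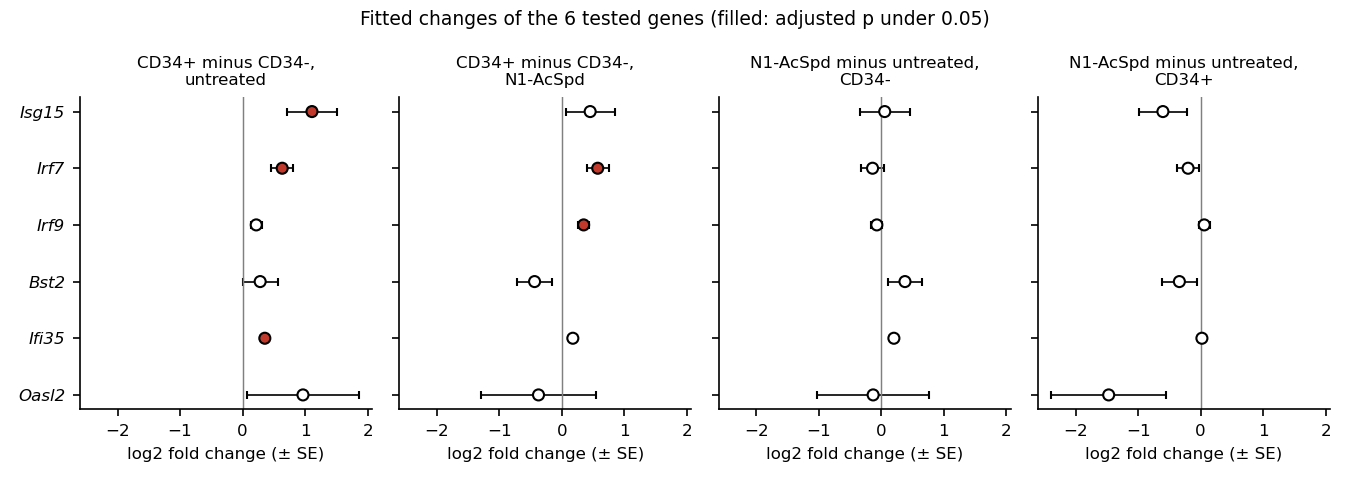
Log2 fold change (x axes) with its SE for the 6 tested genes (y axis) in the cell type and treatment comparisons, 1 panel each, filled points having an adjusted p under 0.05. The 5 filled points lie right of 0 in the panels of CD34+ minus CD34-, and the treatment panels hold none.

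Whether the mice differed was tested with the group means removed. Of all tested genes 0.882% differed between the 4 animals, and 0 of the 6 members did in edgeR (adjusted p from 0.562 to 0.924), with 0 at an unadjusted p under 0.05 and 0 called by DESeq2. Mean levels of Irf9 over the 4 libraries of an animal were 6.21, 6.13, 5.88 and 6.30 CPM for mice 1 to 4, and those of Ifi35 18.1, 19.8, 18.7 and 19.3 CPM. Oasl2 ranged more widely, from 0.155 CPM in mouse 4 to 0.391 CPM in mouse 1.

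As a description, genes were ranked by how closely they followed the members over the 16 libraries. The measure was Pearson's r, after group means were subtracted, between a gene's log2 CPM and the mean z-score of the members. All 9 members had equal weight in that mean, also Ifit3 with 10 UMIs and Ifit2 with 8 over all libraries. Among the 12442 genes whose mean count reached 50 the first 5 were Gm15602 (r = 0.91), Gm22574 (0.91), Cox7c (0.90), Serinc4 (0.89) and Psma6 (0.88), none of which is in the interferon lists used here. Cox7c encodes a subunit of cytochrome c oxidase and Psma6 one of the proteasome core. The ranking was not tested, and overlaps of these 5 genes with other gene models were not examined. The points share libraries and depth, the members' mean having an r of 0.19 with log2 library total and -0.24 with the scaling factor.

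The rest of the interferon pathway was examined through 126 other genes in 8 lists, of which 104 had counts and 77 were tested. In untreated cells 34 of the 77 were higher in CD34+ cells and 8 lower, and after N1-AcSpd 32 were higher and 8 lower, 54.5% and 51.9% called against the 32.1% and 33.3% of all tested genes. With library totals in place of TMM scaling the median of all genes moved to 0.14 and 0.11 in these comparisons, and higher genes went from 49.96% to 73.4% and from 49.59% to 71.6% of all calls. On that scaling the pathway counts were 39 higher and 6 lower, and 42 higher and 8 lower. The counts of 9 of the 77 genes nearly equalled those of an overlapping gene, and without them 31 and 29 genes were higher and 5 lower in each comparison.

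Of 21 interferon genes in the ligand list, 4 had any UMI and none was tested. Ifnz had 17, 6, 22 and 6 UMIs in untreated CD34-, untreated CD34+, N1-AcSpd CD34- and N1-AcSpd CD34+ groups, while Ifna16, Ifnab and Ifng had 2, 1 and 1 UMIs in all 16 libraries. Messages of the receptors were present. Ifnar1, which encodes a chain of the type I receptor, was lower in CD34+ cells, at 16.2 ± 2.38 CPM in untreated CD34- and 9.43 ± 0.737 CPM in untreated CD34+ libraries (SD, n = 4 each, log2 fold change -0.78, SE 0.093, edgeR adjusted p = 2.56e-05). Its partner Ifnar2 was higher, at 5.67 ± 0.612 against 8.44 ± 1.05 CPM (log2 fold change 0.57, SE 0.11, edgeR adjusted p = 0.00148), and so was Ifngr2 of the interferon γ receptor (0.40, SE 0.084, edgeR adjusted p = 0.00246). Ifnar2, with 2255 UMIs, overlaps Gm21970 on the same strand, which had 2111 UMIs. Their r over the 16 libraries was 0.98, so the split of tags between Ifnar2 and Gm21970 is uncertain. In all 4 of the 6 receptor genes passed in untreated cells, 66.7% against the 32.1% of all tested genes, Il10rb being the fourth. Il10rb, with 2732 UMIs, also overlaps Gm21970 (r = 0.70). After N1-AcSpd 3 of the 6 passed in the same directions, 50% against 33.3%, with -1.09 for Ifnar1, 0.47 for Ifnar2 and 0.51 for Ifngr2.

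In the JAK-STAT list 1 gene was higher and 2 lower among 9 tested in untreated cells, and 3 higher and 1 lower after N1-AcSpd. These were 33.3% and 44.4% called, against 32.1% and 33.3% of all tested genes. The 3 higher became 1 without N1-AcSpd CD34+ library 1 or 4, without N1-AcSpd CD34- library 2 and without mouse 1, 3 or 4, and 2 without N1-AcSpd CD34- library 3 or 4, without mouse 2 and with no low-count filter. Socs3, a feedback inhibitor of JAK signalling, was higher in CD34+ cells (log2 fold change 0.80, SE 0.091, edgeR adjusted p = 1.73e-05 untreated and 0.63, SE 0.090, after N1-AcSpd). Jak1 was lower in untreated CD34+ cells at 19.4 ± 1.61 against 16.0 ± 1.14 CPM in CD34- and CD34+ libraries (SD, n = 4 each, log2 fold change -0.28, edgeR adjusted p = 0.00715). Tyk2 was called lower in both comparisons, with counts that nearly equal those of an antisense gene model. Among 5 tested interferon regulatory factors outside the 9 genes, Irf1 (0.75, SE 0.12) and Irf2 (0.65, SE 0.11), which bind related promoter elements, were higher in untreated CD34+ cells. In each comparison 2 of the 5 were higher and 1 lower, 60% called against the 32.1% and 33.3% of all tested genes.

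Of 13 tested nucleic acid sensors 2 were higher in each comparison, Tmem173 and Eif2ak2 in untreated cells and Ifih1 and Tlr3 after N1-AcSpd, named after their values were seen since their mean counts were under 50. These were 15.4% of the list, under the 32.1% and 33.3% of all tested genes. In untreated cells the count was 0 without untreated CD34+ library 4 or without mouse 3 or 4 and 4 with library totals. It was 1 without untreated CD34- library 2, 3 or 4, untreated CD34+ library 3, N1-AcSpd CD34- library 4, N1-AcSpd CD34+ library 2 or 3, or mouse 2. After N1-AcSpd it was 0 without CD34- library 1, CD34+ library 3, mouse 1 or mouse 3, and 1 without CD34- library 2 or 4 or CD34+ library 2. With no low-count filter it was 1 in each comparison, and with the filterByExpr rule 1 after N1-AcSpd. The enzymes that attach ISG15 held 1 call among 3 tested in untreated cells and 2 after N1-AcSpd, 33.3% and 66.7% against the 32.1% and 33.3% of all tested genes. Ube2l6, the conjugating enzyme for ISG15, went from 2.98 ± 0.558 to 6.87 ± 0.926 CPM between untreated CD34- and CD34+ libraries (SD, n = 4 each, log2 fold change 1.21, SE 0.14, edgeR adjusted p = 2.49e-05). After N1-AcSpd its log2 fold change was 1.29 (SE 0.14), and Trim25, a ligase, joined it with 0.35 (SE 0.11, edgeR adjusted p = 0.0292). The list then held 1 call in place of 2 with no low-count filter, with only the compared groups, without N1-AcSpd CD34- library 1, 3 or 4, without N1-AcSpd CD34+ library 2 or 3, and without mouse 1 or 3.

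Other interferon-stimulated genes moved in both directions. Of 29 tested, 14 were higher and 4 lower in untreated CD34+ cells, and 11 higher and 5 lower after N1-AcSpd. These were 62.1% and 55.2% called, against 32.1% and 33.3% of all tested genes. Lgals9, encoding galectin-9, was higher at 3.62 ± 0.554 against 10.8 ± 1.11 CPM in untreated cells (SD, n = 4 each, log2 fold change 1.58, SE 0.17, edgeR adjusted p = 9.67e-06). Ifi27 was higher by 0.82 after N1-AcSpd (SE 0.086, edgeR adjusted p = 7.08e-06). In untreated cells Ifi27 also lay higher, at 28.7 ± 3.02 against 46.7 ± 2.92 CPM in CD34- and CD34+ libraries (SD, n = 4 each). The membrane protein gene Ifitm2 was higher by 0.62 untreated and 0.69 after N1-AcSpd, though its counts nearly equal those of Gm45717. Samhd1, whose enzyme breaks down nucleotides, was lower at 95.4 ± 7.67 against 53.0 ± 6.58 CPM (log2 fold change -0.85, SE 0.087, edgeR adjusted p = 6.47e-06 untreated) and at -0.88 after N1-AcSpd. Xaf1, a gene linked to apoptosis, was lower with log2 fold changes of -0.76 and -0.65 (SE 0.093 each). The ISRE core was found in the promoter windows of 22 of the 38 genes of this list that had one, and in 2 of 10 antigen presentation genes.

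The list with the highest share of calls was MHC class I antigen presentation, the proteins that cut, transport and display cellular peptides. In untreated CD34+ cells 11 of its 12 genes were higher and none lower, and after N1-AcSpd 10 of 12 were higher, against 16.1% and 16.5% of all tested genes. Median log2 fold changes were 0.55 and 0.54. The peptide transporter genes Tap1 and Tap2 had log2 fold changes of 0.97 (SE 0.073, edgeR adjusted p = 7.68e-07) and 1.18 (SE 0.12, edgeR adjusted p = 4.72e-06) in untreated cells. Psmb9, a subunit of the immunoproteasome, went from 6.65 ± 1.40 to 21.7 ± 2.64 CPM between N1-AcSpd CD34- and CD34+ libraries (SD, n = 4 each, log2 fold change 1.70, SE 0.17, edgeR adjusted p = 4.45e-06). Tap1 and Psmb9 overlap on opposite strands, with 4723 UMIs each and an r of 0.92 over the 16 libraries. Nlrc5, the transactivator of this gene group, was the gene not called in either comparison, at -0.09 (SE 0.090, edgeR adjusted p = 0.620) and -0.21 (SE 0.089, edgeR adjusted p = 0.154), and Psmb10 had adjusted p of 0.0162 and 0.108, with an interaction of -0.08 (SE 0.092) that did not pass. Psmb8 and B2m have counts that nearly equal those of an overlapping gene, and without them 9 and 8 of 10 genes were higher. Those 10 still hold genes with other overlaps. Tap2, with 1320 UMIs, overlaps the antisense model Gm20496, which also overlaps Psmb8 and had 8489 UMIs (r = 0.92 with Tap2). Psmb10, with 5688 UMIs, overlaps the antisense model Gm16156, which had 8241 (r = 0.94). The split of tags in these pairs is uncertain.

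**Figure D3:**
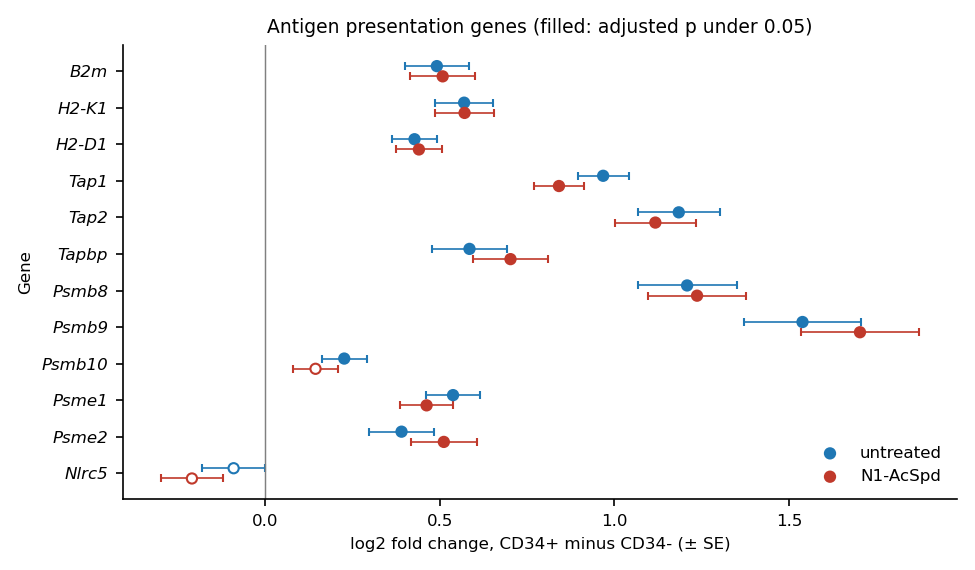
Log2 fold change of CD34+ minus CD34- cells (x axis) with its SE for 12 antigen presentation genes (y axis), untreated in blue and N1-AcSpd in red, filled points having an adjusted p under 0.05. Psmb9 lies farthest right at 1.54 and 1.70, and Nlrc5 lies left of 0.

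Under N1-AcSpd no gene of the 8 lists passed within CD34- or within CD34+ cells in edgeR, and DESeq2 called 1 in each. At an unadjusted p under 0.05 there were 13 and 3 of the 77. The share of all tested genes at that unadjusted threshold is not given here, so these counts show no excess over other genes. Averaged over both fractions 2 of 77 passed, 2.60% against the 4.86% of all genes. Xaf1 was higher with N1-AcSpd (edgeR log2 fold change 0.26, SE 0.065, adjusted p = 0.0359), at 146 ± 14.4 and 169 ± 3.75 CPM in CD34- and 86.0 ± 10.6 and 107 ± 10.7 CPM in CD34+ libraries, and in each of the 4 mice. Tor3a, an ATPase gene of the endoplasmic reticulum, was lower (-0.24, SE 0.064, edgeR adjusted p = 0.0435). Neither call held with no low-count filter, under which the count was 0, mouse as a replicate block gave 5, and leaving out a library or a mouse gave 0 to 2. The interaction called 0 of the 77 in edgeR, with 2 at an unadjusted p under 0.05, and 0 in DESeq2.

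**Figure D4:**
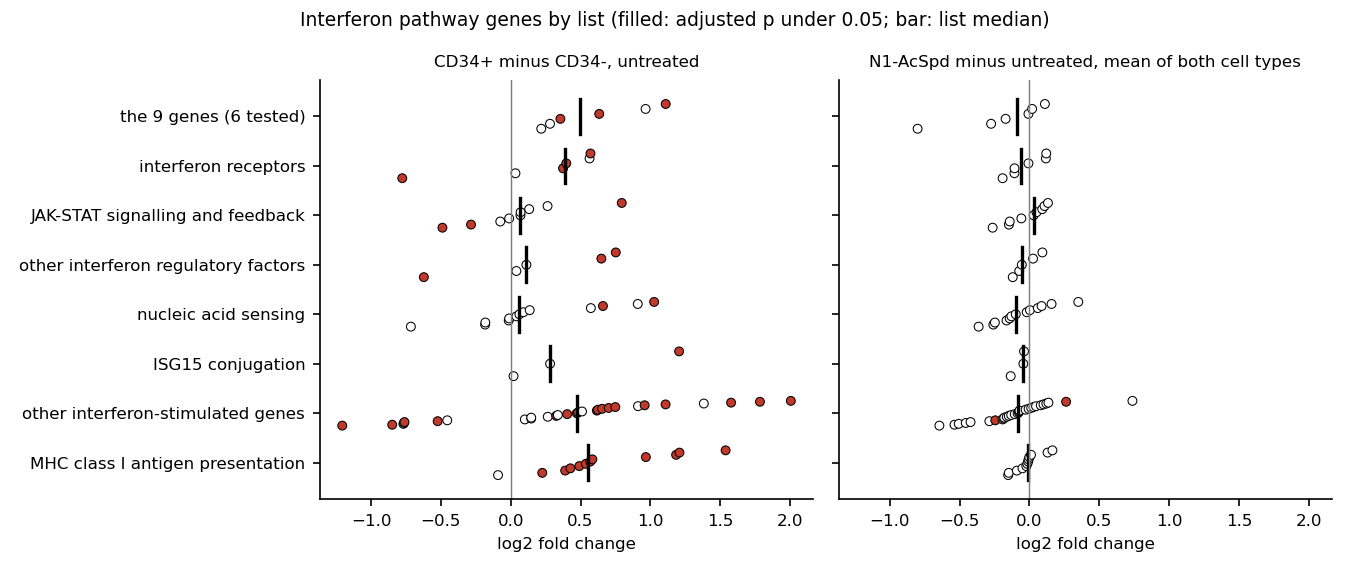
Log2 fold changes (x axes) of the 6 tested members and of each pathway list with tested genes (y axis, 1 point a gene, bar at the list median), for CD34+ minus CD34- in untreated cells on the left and for N1-AcSpd averaged over both fractions on the right. On the left the antigen presentation list lies right of 0 except for Nlrc5, and on the right only Xaf1 and Tor3a are filled.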

How the data were processed

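RNA of 16 libraries was sequenced from the 3′ end. Reads were split by FLEXBAR, pseudo-aligned to mm10 with Kallisto (0.45.0 per the labels), assigned through BEDTools and collapsed to unique tags for each gene. The authors deposited these UMI counts without normalization, and 156050 empty cells were taken as 0. The annotation release is not given in the sources used here. Identifiers with no symbol, 94 in all, held 0.125% of counts.

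Groups came from the labels. Quasi-likelihood tests of edgeR 4.0.16 (R 4.3.3) with TMM scaling used all 16 libraries together, a mean for each group and no other term, and were two-sided. A mean count of 5 was required. A call is a Benjamini-Hochberg adjusted p under 0.05 over all genes tested, and SE was taken as the log2 fold change over the root of F. Totals of 15480075 to 29074855 UMIs limit the precision of low genes, and Poisson intervals cover counting error only. The code was tested on simulated data. DESeq2 1.42.0, other scalings and filters, a mouse block, only the compared groups, summed paralogs and leave-outs were alternatives.

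The labels' mouse entry pairs libraries across groups, although the residuals of 24 same-mouse pairs correlated little (mean r 0.013, from -0.069 to 0.086). The 9 genes and all lists were chosen with earlier results of these data known. From each other list the 2 called genes per direction with the smallest adjusted p and a mean count of at least 50 were named, and counts within 1.1 times of an overlapping gene's with r over 0.99 were said to nearly equal them. Il10rb, Nlrc5, Psmb10, Psmb8 and B2m and the nucleic acid sensors were named after their values were seen. Some genes of the lists are not reported here by name.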

Additional observations from a re-analysis of the deposited data

Results flagged for a closer look

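In each group of 4 libraries the gap of the farthest library to its neighbour was set against the group's range. Of 35 gene and group pairs, 6 passed Dixon's 95% critical value. Chance gives about 1 in 20 only for continuous, normally distributed values. A group with 1 UMI in 1 library and 0 in the rest always has a ratio of 1. The rate to expect for such counts is not known, so 6 of 35 cannot be called high or low. Oasl2 in untreated CD34- cells had a ratio of 0.877, library 1 holding 0.731 CPM and the others at most 0.128 CPM. Isg15 in N1-AcSpd CD34+ cells had 0.903, library 2 standing low at 0.171 CPM. The other 4 rest on single molecules. Ifit2 had ratios of 1 in untreated CD34- cells, 0.953 in untreated CD34+ cells and 1 in N1-AcSpd CD34+ cells, and Ifit3 had 1 in untreated CD34- cells.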

How the results depend on the processing

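Members called numbered 3 in untreated cells and 2 after N1-AcSpd. Leaving out a library or a mouse gave 1 to 4 and 1 to 3, and no low-count filter, only the compared groups and DESeq2 each gave 1 after N1-AcSpd. No member was called for treatment, interaction or mouse under any alternative run. Of the pathway genes DESeq2 called 1 for treatment in CD34- and 1 in CD34+ cells. The average treatment effect called 0 without a low-count filter and 0 to 2 with a library or mouse left out.

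With mouse as a replicate block, members called were 3 and 3 (Ifi35 joining after N1-AcSpd), pathway genes for the average treatment effect were 5, and Oasl2 for treatment in CD34- cells turned from -0.13 to 0.081. No other call of a member changed under the block.

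Among 984 recomputed log2 fold changes of members, 896 kept direction and call, 32 lost the call, 14 gained it and 42 changed sign, none of the last having been called. Summed paralogs gave Oasl2 0.025 for treatment in CD34- cells. The average treatment effect of Irf9, -0.0069, became 0.00079 with DESeq2 size factors, 0.00076 with library totals and 0.0019 in DESeq2. With a library or mouse left out, values that crossed 0 ran as follows. Oasl2 ran from -1.13 to 0.93 for cell type after N1-AcSpd, from -1.53 to 1.86 for treatment in CD34- cells, from -1.33 to 0.064 for average treatment and from -3.84 to 0.77 for interaction. Irf9 ran from -0.15 to 0.0052 for treatment in CD34- cells, from -0.0040 to 0.12 in CD34+ cells and from -0.057 to 0.050 on average. Isg15 ran from -0.19 to 0.39 for treatment in CD34- cells, Ifi35 from -0.021 to 0.073 for treatment in CD34+ cells, Bst2 from -0.076 to 0.12 for average treatment and Irf7 from -0.34 to 0.13 for interaction. The filterByExpr rule removed Isg15 and Oasl2. Isg15, Oasl2 and the Ifit genes had at most 17 UMIs in a library, which limits the precision of their values. The cause of these changes was not tested.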
